A study of Mus musculus with 90 samples.

Results

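The genes described here encode the proteasome, the cell's main machine for degrading tagged proteins, in CD8 T cells and regulatory T cells (Tregs) sorted from mouse tumours and lymph nodes. They were chosen by name: every gene whose symbol begins with Psm, a letter from a to g and a digit, which gave 49 of the 23420 genes in the count table, and no pseudogene row among them. Of the 49, 48 are subunits, activators, inhibitors or assembly chaperones of the proteasome. Psmc3ip matches only by its name, since its product is a cofactor of meiotic recombination. Psmb8, Psmb9, Psmb10, Psme1 and Psme2, the members that interferon-gamma is known to raise, are given apart from the rest.

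The proteasome has a barrel-shaped 20S core, built from rings of alpha and beta subunits, and a 19S cap that binds ubiquitin-tagged proteins, unfolds them with its ATPases and feeds them into the core. Cutting is done by Psmb5, Psmb6 and Psmb7 in the constitutive core. In the immunoproteasome, which T cells and other blood cells carry in large amounts, Psmb8 takes the place of Psmb5, Psmb9 that of Psmb6 and Psmb10 that of Psmb7, and many of the peptides displayed on MHC class I come from it. Psme1 and Psme2 form PA28, a cap without ATPases that opens the core.

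RNA sequencing covered 90 libraries, 60 of CD8 T cells and 30 of a separate Treg series, with cDNA made by different kits in the 2 series, so that levels were compared only within a series. The CD8 cells came from mice labelled DKO, Il10, Ebi3L and yfp. The study's design text describes Treg-specific knockouts of IL10, of IL35 (a cytokine that contains Ebi3) and of both, so Il10 or Ebi3 RNA in these CD8 libraries is no direct check of the deletion, and yfp is the comparison genotype here. There were 4 DKO, 2 Il10, 3 Ebi3L and 3 yfp sources, and each of these 12 sources gave 5 sorted populations. CD8 cells of the non-draining lymph node are called NDLN, and the tumour gave cells without PD-1 or TIM-3 (NEG), with intermediate PD-1 (INT), with high PD-1 alone (SP) and with high PD-1 plus TIM-3 (DP). All Treg-series libraries carried the genotype label WT. They were Tregs sorted for IL10, for Ebi3 or for neither (DN), from tumour, from non-draining lymph node and under the label naive T cell, plus naive effector T cells (Teff), with 3 libraries per group, 1 in each of 3 batches. The labels used here name no tumour type, age, sex, Cre driver or number of animals per library. The p-values therefore measure the spread between libraries that remains after the batch or source term of a fit.

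Libraries held 19.2 to 47.7 M gene counts in the CD8 series and 9.73 to 20.2 M in the Treg series. The sort genes were checked against the labels. Il10 was at 78.8 to 155 CPM (counts per 1000000 gene counts of a library) in the 9 IL10 Treg libraries and at most 5.14 CPM in any other Treg-series library, and Havcr2, which encodes TIM-3, was at 184 to 473 CPM in DP cells and at most 82.2 CPM in any other CD8 population. Pdcd1, which encodes PD-1, was at 652 to 1742 CPM in DP, 880.3 to 2388 CPM in SP, 47.0 to 784 CPM in INT and at most 85.9 CPM in NEG cells. Cd8a was at 694 CPM or more in every CD8 library. Ebi3 was low throughout and less clear-cut: the 9 Ebi3 Treg libraries had 4.92 to 15.7 CPM, and the other Treg-series libraries up to 6.70 CPM, so that the ranges overlapped. Foxp3, the Treg lineage factor, was at 29.1 to 157 CPM in the 27 Treg libraries, against 15.9 to 29.7 CPM in naive Teff cells, and was 1.64 ± 0.26 higher on the log2 scale in naive DN Tregs than in naive Teff cells.

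Interferon-driven promoters often carry the core of an interferon-stimulated response element (GAAANNGAA) or of a gamma-activated site (TTCNNNGAA), and constitutive proteasome genes are known targets of factors that bind antioxidant response elements (TGANNNNGC). The promoter windows of 6 genes are shown because the comparisons turn on the contrast between their genes: the interferon-linked Psmb8, Psmb9, Psmb10 and Psme1, and the constitutive Psmb5 and Psmb6. Each is the RefSeq window on GRCm38.p6 from 250 bases before to 50 bases after the transcript start, written 5′ to 3′ on the gene's strand with motif matches on either strand in capitals.
Psmb8: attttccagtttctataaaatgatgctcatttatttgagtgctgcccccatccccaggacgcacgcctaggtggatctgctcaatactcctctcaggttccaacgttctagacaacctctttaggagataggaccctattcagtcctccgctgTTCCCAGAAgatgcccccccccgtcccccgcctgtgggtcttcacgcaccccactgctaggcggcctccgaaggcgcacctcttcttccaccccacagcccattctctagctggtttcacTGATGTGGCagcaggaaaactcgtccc
Psmb9: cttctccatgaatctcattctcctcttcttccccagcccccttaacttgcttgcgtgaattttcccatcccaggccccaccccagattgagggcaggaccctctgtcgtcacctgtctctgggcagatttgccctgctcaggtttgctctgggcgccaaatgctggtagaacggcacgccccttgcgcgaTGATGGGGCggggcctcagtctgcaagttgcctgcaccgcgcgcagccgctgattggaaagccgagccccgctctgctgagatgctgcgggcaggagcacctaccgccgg
Psmb10: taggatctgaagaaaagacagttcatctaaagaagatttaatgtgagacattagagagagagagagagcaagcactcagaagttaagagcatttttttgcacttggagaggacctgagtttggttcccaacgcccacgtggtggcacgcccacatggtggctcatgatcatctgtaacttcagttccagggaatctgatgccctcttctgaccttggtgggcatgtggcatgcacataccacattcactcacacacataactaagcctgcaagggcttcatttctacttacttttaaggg
Psme1: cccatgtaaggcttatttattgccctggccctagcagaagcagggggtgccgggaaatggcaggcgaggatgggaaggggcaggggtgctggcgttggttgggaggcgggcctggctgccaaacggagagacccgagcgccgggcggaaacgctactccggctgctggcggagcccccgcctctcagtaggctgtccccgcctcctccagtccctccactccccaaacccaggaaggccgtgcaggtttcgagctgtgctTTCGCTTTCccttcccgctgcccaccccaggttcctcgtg
Psmb5: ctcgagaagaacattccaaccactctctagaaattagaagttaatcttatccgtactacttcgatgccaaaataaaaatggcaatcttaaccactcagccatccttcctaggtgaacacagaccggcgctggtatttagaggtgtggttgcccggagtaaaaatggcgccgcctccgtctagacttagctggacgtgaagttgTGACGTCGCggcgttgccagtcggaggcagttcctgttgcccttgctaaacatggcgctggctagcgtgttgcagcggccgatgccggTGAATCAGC
Psmb6: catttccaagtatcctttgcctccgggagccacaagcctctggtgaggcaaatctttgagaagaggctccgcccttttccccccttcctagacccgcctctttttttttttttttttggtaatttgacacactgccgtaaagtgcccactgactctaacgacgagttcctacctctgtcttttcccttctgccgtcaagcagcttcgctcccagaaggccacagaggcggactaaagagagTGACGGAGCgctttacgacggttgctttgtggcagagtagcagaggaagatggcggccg
Psmb8 lies at chr17:34197945-34198244 on the plus strand, with a gamma-activated site core 97 bases before its start. Psmb9 lies at chr17:34187281-34187580 on the minus strand, and its start is 226 bases from that of Tap1, a peptide transporter gene read in the opposite direction. Psmb10 lies at chr8:105938343-105938642 on the minus strand and held none of the 3 motifs. Psme1 lies at chr14:55578244-55578543 on the plus strand, with an interferon-stimulated response element core on the opposite strand, 10 bases after its start. Psmb5 (chr14:54617946-54618245, minus strand) and Psmb6 (chr11:70525107-70525406, plus strand) held antioxidant response element cores, as did Psmb8 and Psmb9. Of the 41 members with a RefSeq window, 7 held the interferon-stimulated core (17.1%, against 8.56% of all 32851 windows). The gamma-activated core was held by 3 (7.32%, against 8.3%) and the antioxidant core by 24 (58.5%, against 41.3%). The first share counts genes, some with more than 1 window, and the second counts windows, so the shares are unlike measures. The 7 were Psme1 and the constitutive Psmb3, Psmb4, Psmc2, Psmd4, Psmd9 and Psmg4, and the 3 were Psmb8, Psmd2 and Psmg1. A match describes letters only and no match says nothing of a factor.

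Per kilobase of exon, Psmb8 had the highest mean level of the 49 members in both series, with 479 CPM per kilobase in CD8 cells and 371 CPM per kilobase in the Treg series. Psme2 came second in both, with 365 CPM per kilobase in CD8 cells and 364 in the Treg series. The constitutive partner of Psmb8, Psmb5, was at 105 CPM per kilobase in CD8 cells and 80.2 in the Treg series. Psma8, the alpha subunit of the testis proteasome, had a count in 11 of 60 CD8 libraries and 8 of 30 Treg-series libraries, and Psmb11, the catalytic subunit of the thymic proteasome, never exceeded 3 counts in a library. Psmb11 was too low to test. Fitted changes of Psma8 rest on a few libraries, so its own values are left out below. Psma8 stays in the counts of members where it was tested and in the summed level of the core.

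Across the tumour CD8 populations the constitutive proteasome rose in the order of the PD-1 and TIM-3 sort. Most of that rise lay between INT and SP and between SP and DP. The summed level of the 32 genes of the 20S core and 19S cap, without the immunoproteasome, had a median over 12 sources of 5444 CPM in NDLN, 6243 CPM in NEG, 6514 CPM in INT, 8301 CPM in SP and 9753 CPM in DP. Within a source, DP cells held a median of 1.67 times the NEG sum (range 1.42 to 1.92), and the sum was higher in all 12 sources. The step from INT to SP was 1.25-fold (1.04 to 1.63, 12 of 12 sources higher) and that from SP to DP 1.19-fold (0.954 to 1.52, 11 of 12). The step from NDLN to NEG was 1.04-fold, with 6 of 12 sources higher, and that from NEG to INT 1.1-fold (0.958 to 1.21, 11 of 12). In these bulk samples, more cells with a high level and a higher level per cell cannot be told apart.

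**Figure D1:**
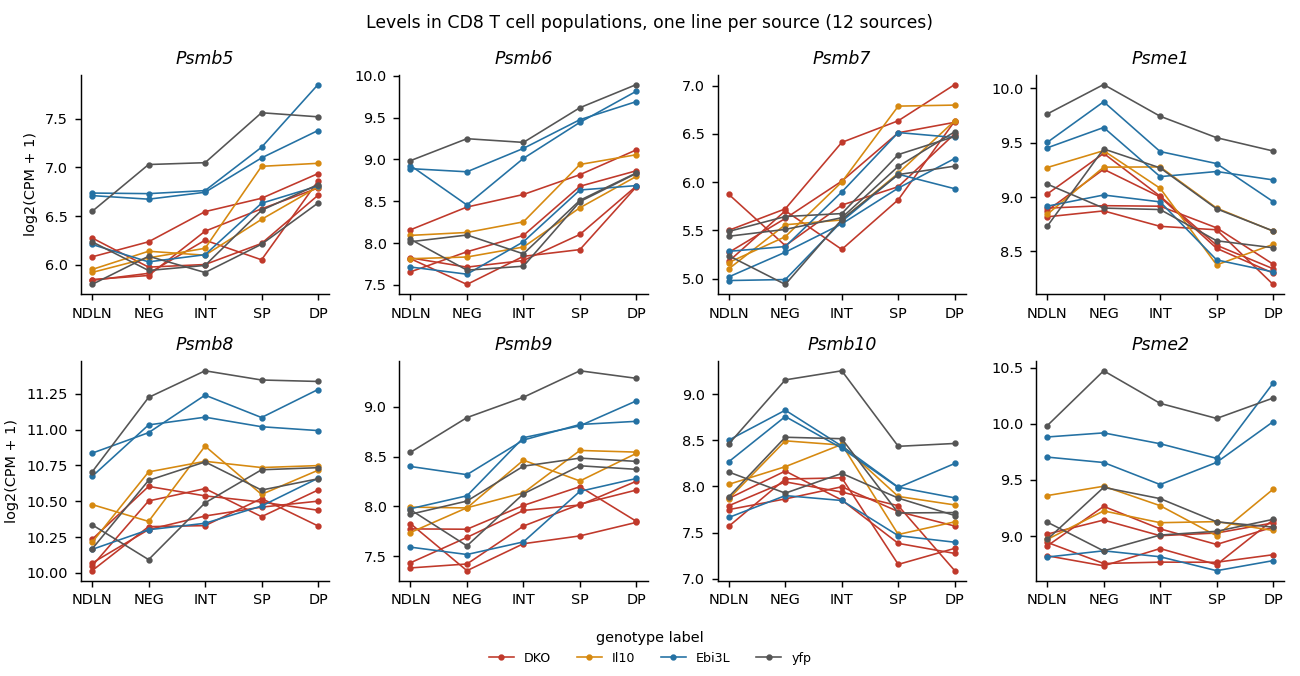
Level, as log2(CPM + 1), of 8 proteasome genes in the 5 CD8 populations, from NDLN at left to DP at right; each line joins the 5 libraries of 1 of 12 sources, coloured by genotype. The constitutive Psmb5, Psmb6 and Psmb7 climb from INT to DP, while Psmb10 and Psme1 are lower in SP and DP than in NEG cells on this scale of library totals.

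The 3 batches of CD8 libraries differed in level. The 3 sources of batch 3 (yfp 3, Ebi3L 2 and Ebi3L 3) had core sums of 7378 to 8268 CPM in NDLN and 13050 to 13700 CPM in DP, above all 9 other sources, which had 4980 to 6059 CPM in NDLN and 8425 to 11700 CPM in DP. The DP over NEG fold was 1.46 to 1.92 in the 7 sources of batch 1, 1.66 to 1.67 in the 2 of batch 2 and 1.42 to 1.79 in the 3 of batch 3. Source was therefore a term of every fit between populations.

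Between DP and NEG cells, 42 of the 48 members tested rose and 3 fell in edgeR's quasi-likelihood test at a Benjamini-Hochberg adjusted p under 0.05 over all genes; 57.1% of all 14734 genes were called, and 30.1% of all were called upward. The members' median log2 fold change was 0.69, against 0.04 over all genes. Psma8 and Psmc3ip are among the 42 that rose. All 45 calls were made again without any of the 12 sources in turn.

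The constitutive catalytic subunits rose, 3 of 3. Psmb5, which cuts after hydrophobic residues, had 98.3, 114 and 230 CPM in DP cells (lowest, median and highest of 12), against 58.3, 66.6 and 130 CPM in NEG cells, a log2 fold change of 0.81 ± 0.07 (SE, adjusted p = 1.11e-13). Psmb6, which cuts after acidic residues, had 407, 461 and 952 CPM in DP cells, against 181, 255 and 607 CPM in NEG cells (0.97 ± 0.06, adjusted p = 2.97e-19). Psmb7, which cuts after basic residues, had 60.04, 90.3 and 128 CPM in DP cells, against 29.7, 43.4 and 51.8 CPM in NEG cells (1.10 ± 0.09, adjusted p = 1.41e-15). Only for Psmb7 did the ranges of DP and NEG not overlap, but in each of the 12 sources all 3 genes were higher in DP than in NEG. Psmb7 shares 405 exonic bases with Nek6 on the opposite strand, and the strand setting of the counting is not given in the sources used here. The same limit holds for Psmc3ip, which shares 385 exonic bases with Mlx, for Psmb8, which shares 498 with Gm20496, and for Psmd1, which shares 252 with Htr2b, all on the opposite strand. Psmd1 also shares 301 bases with Gm21972 and Psmg3 280 with Gm26938 on their own strand.

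The rest of the core and the cap moved the same way. All 7 broadly expressed alpha ring subunits rose, from 0.59 ± 0.06 for Psma7 to 1.06 ± 0.07 for Psma4 on the log2 scale. All 4 beta subunits without a cutting site rose, with Psmb1 the least of them (0.31 ± 0.04, adjusted p = 3.33e-08). All 6 ATPases of the 19S base, which unfold the substrate, rose by 0.65 to 0.95. Of the 11 other 19S subunits 10 rose, among them Psmd14, the enzyme that strips ubiquitin from the substrate (0.90 ± 0.08), and Psmd1, a large scaffold subunit of the base. Psmd1 had 179, 352 and 473 CPM in DP cells, against 52.3, 126 and 219 CPM in NEG cells (1.32 ± 0.13, adjusted p = 7.28e-13), higher in 12 of 12 sources although the ranges overlapped. The exception was Psmd4, a ubiquitin receptor, with 198, 229 and 311 CPM in DP cells, against 191, 220 and 299 CPM in NEG cells (0.03 ± 0.05, adjusted p = 0.638).

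Of the 7 assembly chaperones 6 rose, from 0.35 ± 0.08 for Psmg2 to 0.83 ± 0.13 for Psmg3. The other, Psmg4, fell: it had 15.9, 24.0 and 55.7 CPM in DP cells, against 22.6, 35.7 and 79.0 CPM in NEG cells (-0.52 ± 0.10, adjusted p = 5.93e-06), and was lower in DP in all 12 sources. Psmg3 and Psmg4 are known to act as a pair in building the alpha ring, and here they changed in opposite directions. Psme3, the nuclear activator PA28 gamma, rose by 0.66 ± 0.10 and the inhibitor Psmf1 by 0.33 ± 0.10, while the activator Psme4 had -0.11 ± 0.12 (adjusted p = 0.437). Psmc3ip, the recombination cofactor that shares only the name, had the largest change of the well-measured members, with 24.7, 36.1 and 65.6 CPM in DP cells, against 1.91, 8.92 and 36.4 CPM in NEG cells (1.93 ± 0.24, adjusted p = 1.62e-09).

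The interferon-linked members split. Psmb10 had 135, 200.1 and 353 CPM in DP cells, against 232, 291 and 570 CPM in NEG cells, a log2 fold change of -0.65 ± 0.07 (adjusted p = 9.21e-11). Psme1 had 292, 374 and 686 CPM in DP cells, against 468, 647 and 1049 CPM in NEG cells (-0.70 ± 0.07, adjusted p = 4.4e-13). Both fell in all 12 sources, although the ranges of 12 libraries overlapped. Psmb9 rose, with 228, 339.7 and 623 CPM in DP cells, against 163, 235 and 474 CPM in NEG cells (0.59 ± 0.07, adjusted p = 6.31e-11), higher in 12 of 12 sources. Psmb8 had 1284, 1649 and 2584 CPM in DP cells, against 1090.5, 1502 and 2392 CPM in NEG cells (0.17 ± 0.05, adjusted p = 0.00408), higher in 10 of 12 sources. Psme2 had 439, 560.0 and 1315 CPM in DP cells, against 425, 606 and 1419 CPM in NEG cells (0.06 ± 0.06, adjusted p = 0.458). The genes of the PA28 pair, Psme1 and Psme2, thus differed, one falling and the other without a call.

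**Figure D2:**
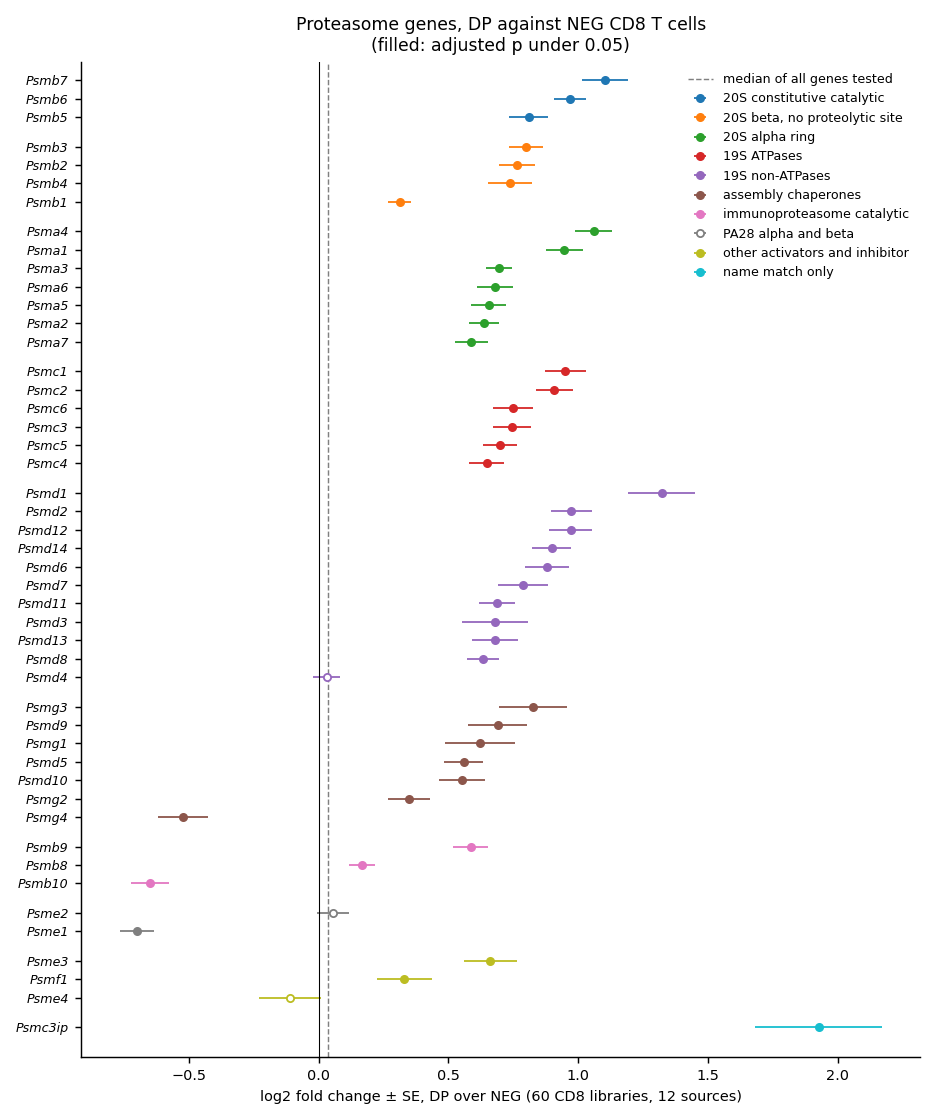
Log2 fold change of DP over NEG cells for 47 members (Psma8 and Psmb11 not drawn), grouped by role, with bars of 1 standard error from the fit to 60 libraries of 12 sources; the dashed line is the median of all genes and filled points passed an adjusted p of 0.05. Nearly all core and cap subunits lie right of 0, while Psme1 (-0.70), Psmb10 (-0.65) and Psmg4 (-0.52) lie left of it.

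Between NDLN and NEG, 11 members rose and 0 fell (15.6% of all genes called, 10.3% upward; 6 and 1 with library totals in place of TMM scaling), and 4 of the 5 interferon-linked members were among them: Psmb10 by 0.42 ± 0.07, Psmb8 by 0.34 ± 0.05, Psme1 by 0.31 ± 0.07 and Psme2 by 0.19 ± 0.06. The call of Psme2 was lost in 5 of the 12 fits without 1 source (DKO 1, DKO 2, Il10 2, yfp 1 and yfp 3), and those of the other 3 in none. Psmb9 (0.08) and the constitutive Psmb5, Psmb6 and Psmb7 (0.12, 0.04 and 0.20) were not called at that step. Between NEG and INT, 5 rose and 2 fell (13% of all genes called; 10 and 2 with library totals), and Psme1 (-0.26 ± 0.07) and Psmg4 (-0.57 ± 0.10) were those that fell. Those that rose were Psmb9 (0.29 ± 0.07, adjusted p = 0.00178), Psmb7 (0.30 ± 0.09), the alpha subunit Psma4 (0.26 ± 0.07), the ATPase Psmc2 (0.22 ± 0.07) and the 19S assembly factor Psmd10 (0.28 ± 0.09). Psmb9, Psma4 and Psmg4 were called in each of the 12 fits without 1 source, while Psme1 was lost without Ebi3L 3 and Psmb7 without DKO 2 or Ebi3L 1. Psmb5 (0.07), Psmb6 (0.12), Psmb8 (0.10), Psmb10 (-0.09) and Psme2 (-0.13) were not called. Without the 3 sources of batch 3, calls numbered 7 between NDLN and NEG and 2 between NEG and INT.

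Between INT and SP, 33 members rose and 2 fell (27.8% of all genes called, 14.4% upward). Psmb10 fell by 0.57 on the log2 scale (SE 0.07, adjusted p = 3.94e-08) and Psme1 by 0.34 (SE 0.07, adjusted p = 9.2e-05) at the step where Psmb5 rose by 0.33 ± 0.07, Psmb6 by 0.44 ± 0.06 and Psmb7 by 0.46 ± 0.09. Psmb8 (-0.07), Psmb9 (0.15) and Psme2 (-0.11) were not called. Between SP and DP, 36 rose and 0 fell (22.4% of all genes called, 10.7% upward), again with Psmb5 (0.41 ± 0.07), Psmb6 (0.41 ± 0.06) and Psmb7 (0.34 ± 0.09). At this last step Psme2 rose by 0.29 ± 0.06 and Psmb8 by 0.14 ± 0.05, while Psmb10 (0.01), Psme1 (-0.10) and Psmb9 (0.15) were not called. The call of Psmb8 was lost in 8 of the 12 fits without 1 source, and that of Psme2 in none. Neighbouring steps share a population, so their values are given side by side and not as separate support.

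The balance of each immunoproteasome subunit and its constitutive partner was taken as the log2 ratio of their counts in a library, which does not depend on the library's scaling. Counts were not divided by exon length, so a ratio does not give the relative amounts of the 2 RNAs. Only differences of a ratio between groups are read. Psmb10 over Psmb7 had a mean of 2.72 ± 0.47 in NDLN, 2.94 ± 0.62 in NEG, 2.55 ± 0.57 in INT, 1.52 ± 0.60 in SP and 1.18 ± 0.65 in DP (SD, n = 12 each). Psmb8 over Psmb5 had 4.17 ± 0.20, 4.38 ± 0.15, 4.42 ± 0.26, 4.02 ± 0.29 and 3.74 ± 0.25 in the same order. Psmb9 over Psmb6 had -0.28 ± 0.27, -0.23 ± 0.22, -0.07 ± 0.35, -0.36 ± 0.30 and -0.62 ± 0.27. All 3 ratios were lower in DP than in NEG in 12 of 12 sources, by a median of -1.78 (range -2.20 to -1.27) for Psmb10 over Psmb7, -0.59 (-1.17 to -0.25) for Psmb8 over Psmb5 and -0.39 (-0.68 to -0.23) for Psmb9 over Psmb6. Psmb8 and Psmb9 were themselves higher in DP than in NEG cells, by less than their partners, and Psmb10 was lower.

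**Figure D3:**
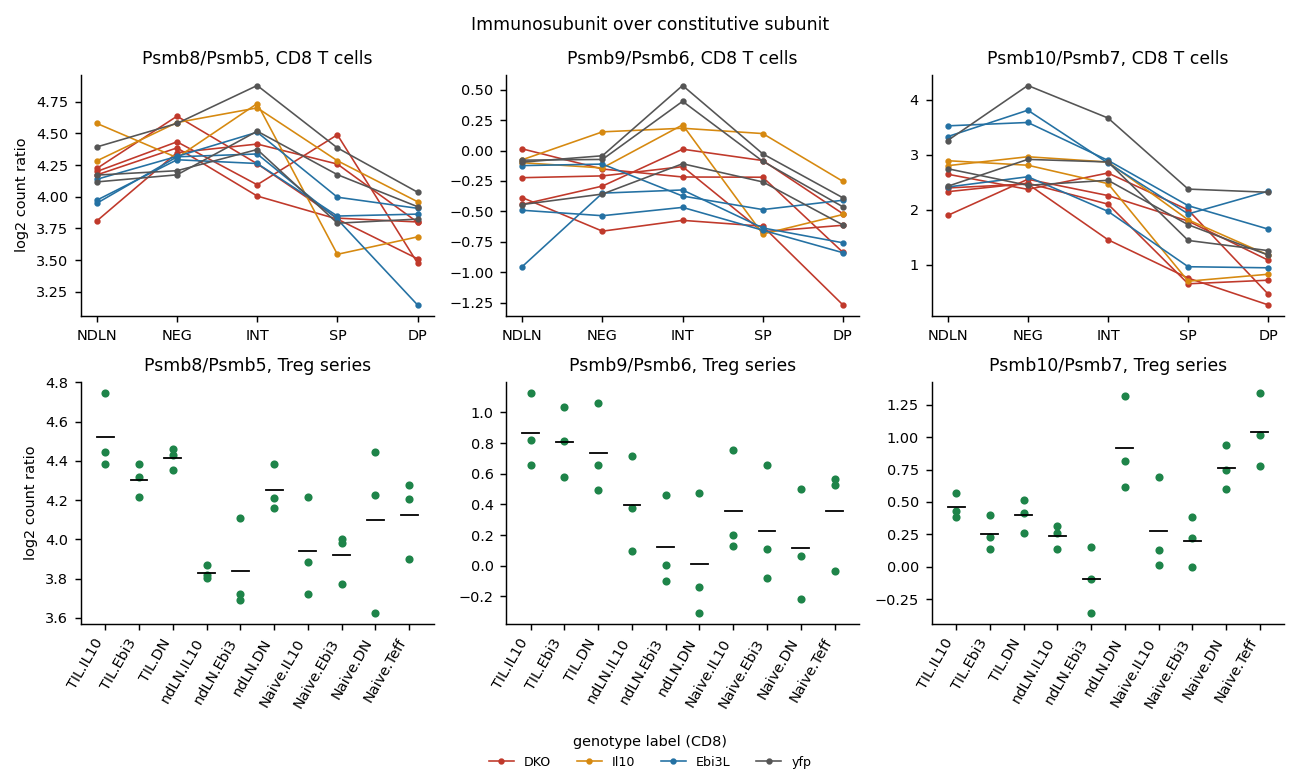
Log2 ratio of the counts of each immunoproteasome subunit to its constitutive partner, in 5 CD8 populations and 10 Treg-series groups; lines join the libraries of a CD8 source, points are Treg-series libraries and bars their group means (TIL, tumour; ndLN, lymph node). In CD8 cells the mean of each ratio is lowest in DP, and in Tregs Psmb8 over Psmb5 is higher in tumour than in lymph node for IL10 and Ebi3 Tregs.

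Other genes moved beside these between DP and NEG cells. Most of all genes were also called in this comparison, with the shares given above. A count of calls alone therefore does not set a list apart. Of 15 proteasome-associated genes outside the name pattern 9 rose and 0 fell, among them Usp14 and Uchl5, ubiquitin-removing enzymes of the cap (1.21 ± 0.09 and 0.76 ± 0.06), and Vcp, an unfolding ATPase (0.76 ± 0.08). All 15 proliferation genes tested rose, with a median log2 fold change of 3.05, and their summed level was at 3290 to 7830 CPM in DP cells, against 456 to 2828 CPM in NEG cells. Of 14 interferon-response genes 13 fell and 1 rose (median -1.69), and their sum was at 518 to 1892 CPM in DP cells, against 1973 to 5661 CPM in NEG cells. Of 11 genes of MHC class I loading 4 rose, led by the chaperones Calr (1.16 ± 0.08) and Pdia3 (0.96 ± 0.07), and 5 fell, led by Nlrc5, the activator of class I genes (-1.19 ± 0.10). Between NEG and NDLN cells, where 4 of the 5 interferon-linked members rose, 11 of 14 interferon-response genes rose and 0 fell. The part of these lists in the members' changes was not tested.

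Of 10 myeloid markers tested 5 rose between DP and NEG, and their sum was at 156 to 809 CPM in DP cells, against 66.1 to 193 CPM in NEG cells. Most of it was Cst3 (130 to 748 CPM in DP, against 58.2 to 179 CPM in NEG), while Csf1r and C1qa had medians of 0 in every population. The other 4 markers that rose were low: in DP, against NEG cells, Cd68 had a median of 12.8 against 6.06 CPM, H2-Aa 12.2 against 0 CPM, Cd14 1.51 against 0 CPM and Lyz2 0.129 against 0 CPM, with H2-Aa reaching 135.5 CPM in 1 DP library. The pigment cell gene Tyrp1 also rose, with a count in 5 of 12 DP libraries (at most 2.67 CPM), against 1 of 12 NEG libraries, while Pmel of the same list fell. B cell markers summed to at most 22.4 CPM in DP cells and 76.5 CPM in NEG cells, and NK cell markers to at most 102 CPM in DP cells and 140.2 CPM in NEG cells. The shares of all genes called between DP and NEG, given above, apply to these counts too. The part of the marker genes in the members' changes was not tested.

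The rise from NEG to DP was present in each genotype. Within DKO sources 39 members rose and 3 fell (34.4% of all genes called, 18.1% upward), within Il10 sources 37 and 2 (25.9%, 13.7% upward), within Ebi3L sources 36 and 2 (32.2%, 15.9% upward) and within yfp sources 38 and 3 (27.6%, 14.4% upward). Psmb10 had 160, 154, 135 and 189 CPM in DP cells of the 4 DKO sources, against 269.8, 286.5, 264 and 232 CPM in NEG cells of the same sources. In the 3 yfp sources it had 209, 205 and 353 CPM in DP cells, against 370, 242 and 570 CPM in NEG cells. No member passed edgeR's interaction test of the DP over NEG change between a knockout and yfp (0 called for each of the 3 knockouts, with 3 members for DKO, 4 for Ebi3L and 1 for Il10 at an unadjusted p under 0.05), and of all genes 0.00679% were called for DKO, 0.0204% for Ebi3L and 0% for Il10.

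No member passed the test between knockout and yfp cells of the same population. Across 15 such comparisons, edgeR called 0 members, with 0 to 10 members at an unadjusted p under 0.05, the 10 being in NEG cells of Ebi3L against yfp. Of all genes 0 or 1 was called in each of the 15, which is 0.00811% in NDLN for Il10 and 0.00775% in INT for each knockout, and 0% in the others. These comparisons had 2 to 4 sources a group, and their median standard error per member of 0.14 to 0.25 on the log2 scale limits what they could show. Batch was a term of these fits, and the genotypes were uneven over the batches. Batch 2 held no yfp source, and batch 3 held no DKO or Il10 source, so fewer sources were compared within a batch. Without a call, all interferon-linked members were below yfp in each population for DKO and Ebi3L. Medians of Psmb8, Psmb9 and Psmb10 were -0.45 to -0.25 for DKO, -0.58 to -0.26 for Ebi3L and -0.12 to 0.08 for Il10. Those of Psmb5, Psmb6 and Psmb7 were -0.28 to 0.05 for DKO, -0.25 to -0.01 for Ebi3L and -0.21 to 0.04 for Il10. The direction was not particular to the interferon-linked members. In SP cells of DKO and in NEG cells of Ebi3L, no tested alpha ring, constitutive beta or ATPase member was above yfp. In SP cells of DKO the median of Psmb5, Psmb6 and Psmb7 was -0.28, against -0.26 for Psmb8, Psmb9 and Psmb10. All these comparisons share the yfp sources, and this direction was not tested.

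Between tumour and lymph node Tregs, most calls were in DN Tregs, with fewer in IL10 and Ebi3 Tregs. The shares of all genes called ran in the same order, so this order is not particular to the members. In DN Tregs, those without IL10 or Ebi3, 15 members rose and 3 fell in tumour (23.4% of all genes called, 12.9% upward). In IL10 Tregs 3 rose and 0 fell (9.32% called), and in Ebi3 Tregs 8 rose and 1 fell (10.3% called). The members' median log2 fold change was 0.22 in DN, 0.03 in IL10 and 0.15 in Ebi3 Tregs. When library totals replaced the TMM scaling the median of all genes moved from 0.01, -0.02 and -0.04 to -0.10, -0.18 and -0.20, and that of the members to 0.10, -0.14 and -0.01, so the changes below are relative to most genes. Under that scaling 7 rose and 4 fell in DN Tregs, 3 rose and 3 fell in IL10 Tregs and 4 rose and 1 fell in Ebi3 Tregs. The calls also rest on the batch term: without it 4 members were called in DN, 0 in IL10 and 2 in Ebi3 Tregs. Without 1 batch, 8 to 10 were called in DN, 1 to 3 in IL10 and 2 to 8 in Ebi3 Tregs, with the fewest in IL10 and Ebi3 Tregs when batch 3 was left out. Shares of all genes called are given for the main fits only. Counts under the alternatives therefore do not show whether members were called more often than other genes.

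Psmb9, the immunoproteasome partner of Psmb6, was the only member called in all 3 Treg populations, and it had the largest change of those called in DN and Ebi3 Tregs. It had 477, 429.8 and 514 CPM in tumour DN Tregs, against 298, 262 and 318 CPM in lymph node DN Tregs (batches 1, 2 and 3 in each case), with a log2 fold change of 0.82 ± 0.10 (adjusted p = 3.22e-07). In Ebi3 Tregs it had 573, 465 and 586 CPM in tumour, against 349, 305 and 385 CPM in lymph node (0.81 ± 0.10, adjusted p = 5.94e-07). In IL10 Tregs it had 437, 432 and 532 CPM in tumour, against 372, 316 and 385 CPM in lymph node (0.56, adjusted p = 0.000161). The tumour libraries were above the lymph node libraries without overlap in all 3 populations. Psmb9 shares 212 exonic bases with Tap1 on the opposite strand, and Tap1 was also higher in tumour, by 0.68 ± 0.15 in DN, 1.01 ± 0.15 in IL10 and 0.94 ± 0.15 in Ebi3 Tregs; how much of either count belongs to the other was not tested.

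Psmb8 had 1458, 1342 and 1609 CPM in tumour IL10 Tregs, against 1162, 858 and 1242 CPM in lymph node IL10 Tregs (0.62 ± 0.09, adjusted p = 2.31e-05). It had 1612, 1420.5 and 1810.2 CPM in tumour Ebi3 Tregs, against 1241, 1088 and 1271 CPM in lymph node Ebi3 Tregs (0.58 ± 0.09, adjusted p = 4.2e-05). The libraries of the tumour and the lymph node did not overlap in either. In DN Tregs Psmb8 had 1478, 1067 and 1701 CPM in tumour, against 1320.0, 1152 and 1386 CPM in lymph node, which overlapped (0.25, adjusted p = 0.0503).

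Psmb10 rose in tumour in IL10 Tregs (0.45, adjusted p = 0.000974) and Ebi3 Tregs (0.49, adjusted p = 0.000289) and not in DN Tregs (0.03, no call). In tumour it had 267, 255 and 243 CPM in IL10 Tregs, 273, 248 and 268 CPM in Ebi3 Tregs and 303, 253 and 259.5 CPM in DN Tregs. In lymph node it had 250.1, 172 and 212 CPM in IL10 Tregs, 228, 201 and 200.1 CPM in Ebi3 Tregs and 311, 273 and 285 CPM in DN Tregs. A test of the difference between IL10 and DN Tregs in the tumour effect gave 0.42 for Psmb10 (adjusted p = 0.0528) and did not pass.

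**Figure D4:**
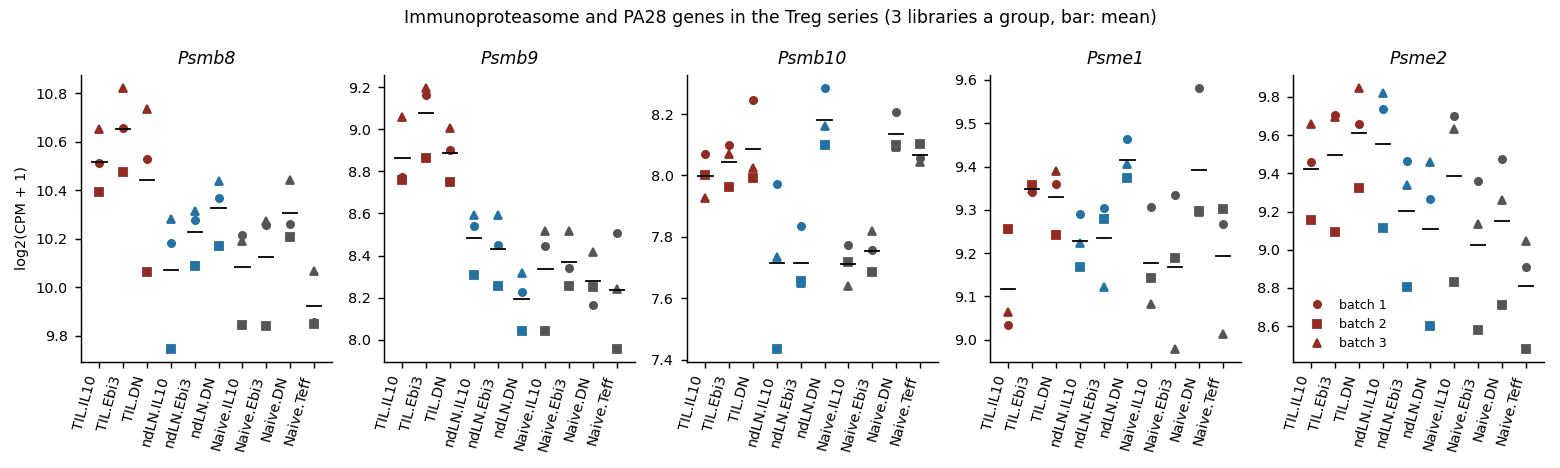
Level, as log2(CPM + 1), of the 3 immunoproteasome and 2 PA28 genes in the 10 Treg-series groups (TIL, tumour; ndLN, lymph node); point shapes mark the 3 batches and bars the group means. Psmb9 is highest in the 3 tumour groups, and Psmb10 in naive and lymph node IL10 and Ebi3 Tregs lies below DN Tregs of the same site.

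For Psme2 the tumour effect differed between IL10 and DN Tregs in the test of that difference. In DN Tregs it had 807, 639 and 921 CPM in tumour, against 614, 388 and 703 CPM in lymph node, with a log2 fold change of 0.63 ± 0.11 (adjusted p = 6.8e-05). In IL10 Tregs it had 702, 569.5 and 806 CPM in tumour, against 852, 552 and 902 CPM in lymph node, and was not called (0.04). In Ebi3 Tregs it rose by 0.46 ± 0.11 (adjusted p = 0.00395). The IL10 minus DN difference of these changes was -0.58 ± 0.15 (adjusted p = 0.0207, with 4.49% of all genes called in that test). It was not called without batch 2, without batch 3 or without the batch term. DESeq2 called 5 members and limma 2 over the tests of IL10 and of Ebi3 minus DN Tregs together. No member passed the same test for Ebi3 minus DN Tregs (1.61% of all genes called, 3 members at an unadjusted p under 0.05 in edgeR).

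Constitutive members also rose in tumour DN Tregs. Psma5, an alpha ring subunit, had 241, 228 and 271 CPM in tumour, against 177, 129.9 and 199 CPM in lymph node (0.68, adjusted p = 0.000736). Psmb7 had 227, 177 and 217 CPM in tumour, against 176, 109 and 186 CPM in lymph node (0.54, adjusted p = 0.000421), while Psmb5 (0.08) and Psmb6 (0.09) were not called. In IL10 and Ebi3 Tregs none of Psmb5 (-0.07 and 0.12), Psmb6 (0.08 and 0.12) and Psmb7 (0.24 and 0.14) was called. Psme1 had 0.04 in DN, 0.06 in IL10 and 0.28 in Ebi3 Tregs, with no call. Those that fell in tumour DN Tregs were the 19S subunit Psmd3 (-0.64, adjusted p = 0.00777) and the paired chaperones Psmg1 (-0.55) and Psmg2 (-0.56). Psmg1 also fell in tumour Ebi3 Tregs (-0.61, adjusted p = 0.00536). Psma5, Psmb7, Psmb9 and Psme2 in DN Tregs, Psmb8 in IL10 Tregs, and Psmb8 and Psmb9 in Ebi3 Tregs were called again without each batch in turn, and the other calls were not.

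**Figure D5:**
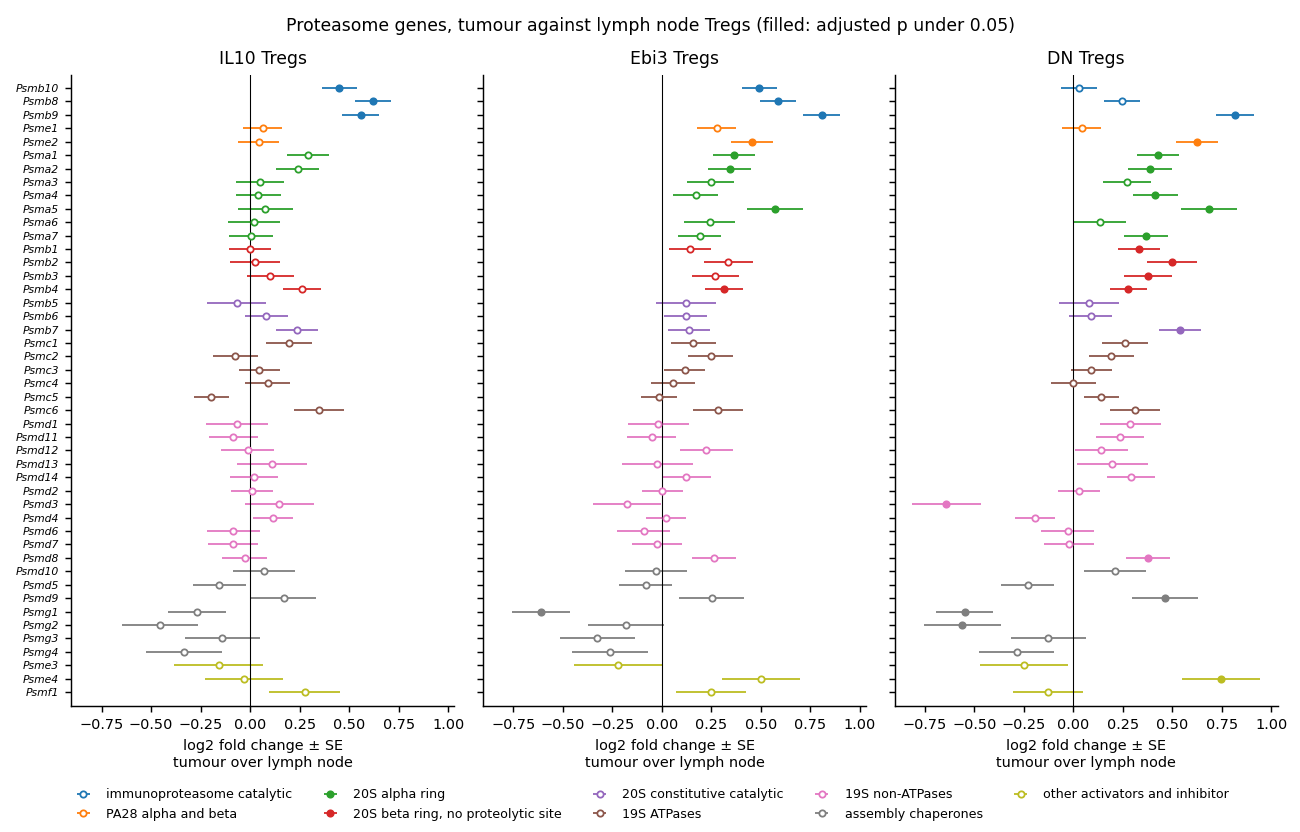
Log2 fold change of tumour over lymph node for the proteasome genes, coloured by role, in IL10, Ebi3 and DN Tregs, with bars of 1 standard error from the fit to 30 libraries; filled points passed an adjusted p of 0.05. Psmb9 is above 0 in all 3 populations, and Psme2 is near 0 in IL10 Tregs and at 0.63 in DN Tregs.

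Beside the tumour effect, interferon-response genes rose, 8 of 14 in IL10 Tregs, 10 in Ebi3 Tregs and 9 in DN Tregs, where 1 fell. The shares of all genes called in these comparisons are those given above. Of 11 MHC class I loading genes 7 rose in IL10 Tregs, 7 in Ebi3 Tregs and 5 in DN Tregs, with B2m among them (0.68 ± 0.09, 0.80 ± 0.09 and 0.81 ± 0.09). Of 15 proliferation genes 0 rose in IL10 Tregs, 0 in Ebi3 Tregs and 7 in DN Tregs, and the difference between the populations was not tested. Myeloid markers summed to 183 to 324 CPM in the 9 tumour Treg libraries and to 101 to 374 CPM in the 9 lymph node libraries. Tyrp1, a pigment cell gene, was at 2.3 to 9.8 CPM in tumour libraries. Of the 4 pigment cell genes tested, 2 rose and 1 fell in tumour DN Tregs. In IL10 Tregs 1 rose and 0 fell, and in Ebi3 Tregs likewise 1 rose and 0 fell. The part of these lists in the members' changes was not tested.

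Within tumour few members passed the test between Treg populations. IL10 against DN Tregs gave 0 calls in edgeR (0.837% of all genes called, 1 member at an unadjusted p under 0.05), and Ebi3 against DN Tregs gave 0 calls (0.713%, 6 members). IL10 against Ebi3 Tregs gave 1, the chaperone Psmg1, which had 43.6, 36.7 and 34.9 CPM in tumour IL10 Tregs, against 60.8, 56.6 and 59.7 CPM in tumour Ebi3 Tregs (-0.55, adjusted p = 0.0375, 2.84% of all genes called). That call was lost in each of the 3 fits without 1 batch, without the low-count filter and without the batch term, where 0 members were called, while DESeq2 called 2 members and limma 6. No member passed the test between lymph node and naive Tregs of the DN, IL10 or Ebi3 kind (0 calls each, with 0.0852%, 0.0542% and 0.00775% of all genes called and 1, 2 and 6 members at an unadjusted p under 0.05 in edgeR).

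Outside the tumour, IL10 and Ebi3 Tregs had less Psmb10 than DN Tregs. In lymph node the log2 fold change was -0.46 for IL10 (adjusted p = 0.000576) and -0.52 for Ebi3 Tregs (adjusted p = 0.00019), from the values given above, which did not overlap with DN. Among naive Tregs Psmb10 had 218, 209.5 and 199 CPM in IL10 Tregs and 215, 205 and 225 CPM in Ebi3 Tregs, against 294, 273 and 272 CPM in DN Tregs, with changes of -0.43 (adjusted p = 0.00106) and -0.46 (adjusted p = 0.000772). In tumour the same changes were -0.03 and -0.06 and were not called. The 2 comparisons at a site share their DN libraries.

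Other members went up in the same comparisons. Psme4, an activator that binds the core without ubiquitin, had 72.2, 66.7 and 83.0 CPM in naive IL10 Tregs and 62.7, 64.0 and 77.5 CPM in naive Ebi3 Tregs, against 33.8, 36.6 and 56.2 CPM in naive DN Tregs (0.82 and 0.62). Psmd1 rose in lymph node IL10 Tregs (0.45) and Ebi3 Tregs (0.50). In lymph node Psme2 (0.45) and Psmb9 (0.29) rose in IL10 Tregs and Psmb7 (0.48) in Ebi3 Tregs, and among naive Tregs Psme1 fell in Ebi3 Tregs (-0.30). The other changes of Psmb5, Psmb6, Psmb7, Psmb8, Psmb9, Psme1 and Psme2 were not called in these 4 comparisons, Psmb8 among them (-0.22 and -0.26 in naive, -0.25 and -0.15 in lymph node IL10 and Ebi3 Tregs). In counts, naive IL10 against DN gave 1 higher and 4 lower (17.8% of all genes called), naive Ebi3 against DN 3 and 3 (12.8%; 4 and 2 with library totals), lymph node IL10 against DN 6 and 4 (16.2%) and lymph node Ebi3 against DN 6 and 1 (13%; 14 and 1 with library totals). DESeq2 called 14 members and limma 15 in lymph node Ebi3 against DN Tregs. Here as in every other comparison, shares of all genes called are given for the main fits only. Counts under the alternatives therefore do not show whether members were called more often than other genes. Without the batch term the 4 comparisons had 2, 1, 3 and 1 calls in all, and without 1 batch 1 to 5, 1 to 3, 2 to 6 and 1 to 6. Psmb10 was called in each of the fits without 1 batch for Ebi3 Tregs at both sites and for lymph node IL10 Tregs, and no other member was in any of the 4 comparisons. Proliferation genes rose in each, by 9, 15, 9 and 14 of 15 in the same order, and of 14 interferon-response genes 4, 6, 4 and 6 fell and 1, 1, 2 and 0 rose. The part of either list in the members' changes was not tested.

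Naive DN Tregs had more of several core and cap subunits than naive Teff cells, with 16 members higher and 0 lower (12.2% of all genes called, 8.79% upward). The largest called changes were those of Psme3 (0.72) and the chaperone Psmg3 (0.60), with Psma7 (0.44), Psmb2 (0.43) and Psmb8 (0.41, adjusted p = 0.00254) next. Psmb8 had 1227, 1182 and 1392 CPM in DN Tregs, against 927, 921 and 1071 CPM in Teff cells, without overlap. Psmb10 had 294, 273 and 272 CPM in DN Tregs, against 265, 274 and 263 CPM in Teff cells, and was not called. Psmb7 (0.38) and Psme2 (0.37) were among those that rose, while Psmb5 (0.45), Psmb6 (0.31), Psmb9 (0.07) and Psme1 (0.23) were not called. Without the batch term 0 of the 16 calls remained in count. Leaving out batch 1, 2 or 3 gave 0, 11 and 1 calls, so that none was made in every one of these fits. Of 15 proliferation genes tested 5 rose and 0 fell (median log2 fold change 1.92). The part of this list in the members' changes was not tested.

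The Psmb8 over Psmb5 log2 ratio in Tregs ran the same way as the levels. It was 4.52 ± 0.19 in tumour IL10 Tregs, against 3.83 ± 0.03 in lymph node IL10 Tregs, and 4.30 ± 0.09 in tumour Ebi3 Tregs, against 3.84 ± 0.23 in lymph node Ebi3 Tregs (SD, n = 3 each), with no overlap between sites. In DN Tregs it was 4.41 ± 0.06 in tumour, against 4.25 ± 0.12 in lymph node, and the libraries overlapped. Psmb9 over Psmb6 was 0.87 ± 0.24, 0.81 ± 0.23 and 0.74 ± 0.29 in tumour IL10, Ebi3 and DN Tregs, against 0.40 ± 0.31, 0.12 ± 0.30 and 0.01 ± 0.41 in the lymph node. Psmb10 over Psmb7 was 0.46 ± 0.09, 0.25 ± 0.13 and 0.40 ± 0.13 in tumour IL10, Ebi3 and DN Tregs, against 0.24 ± 0.09, -0.10 ± 0.25 and 0.92 ± 0.36 in the lymph node. For this pair the mean was higher in tumour than in lymph node in IL10 and Ebi3 Tregs and lower in DN Tregs.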

How the data were processed

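Counts per gene for 60 CD8 and 30 Treg-series libraries were deposited by the authors in 1 table; the submitters' processing notes name STAR, featureCounts, Subread, limma and mm10, with no versions, and whether counting used strand is not given in the sources used here. The authors also deposited filtered log2 tables, used for 1 alternative. All 90 count columns were matched to samples by label, and 0 were left unmapped. Members and gene lists were chosen with earlier results of these data known. Every member could be named; the 5 interferon-linked members and Psmb5, Psmb6 and Psmb7 are given in the main comparisons, with up to 4 of the largest and smallest called changes per comparison and up to 3 genes from each other list. Marker genes beyond this rule were named after their values were seen.

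Levels are CPM of library totals; log2 levels in plots add 1 CPM, and count ratios add 0.5 counts to each gene. Tests used edgeR 4.0.16 (TMM, filterByExpr, robust quasi-likelihood) on all libraries of a series, with batch as a term in the Treg series and source in the CD8 series, and by population with batch for genotype; p-values were Benjamini-Hochberg adjusted over all genes. Alternatives were library totals, no low-count filter, no batch or source term, DESeq2 1.42.0, limma 3.58.1 on the log2 values, and leaving out each batch or source; dropping the 3 sources of batch 3 was added after seeing the data. Fits were tested on simulated counts with 1 spread for all genes and no batch or source effect. For tumour against lymph node DN Tregs 18% of 1.5-fold and 80% of 2-fold changes were recovered. The values were 98% and 100% for DP against NEG, and 14% and 84% for DKO against yfp in DP. A change that was not called may therefore be a small change that was missed.

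The pairing comes from the labels, where a Treg replicate is a batch, and from the CD8 sources. Libraries of the same batch deviated from their group means with a median correlation of 0.24 (0.097 to 0.61 over 135 pairs), against -0.19 for different batches; for CD8 sources the values were 0.28 (0.041 to 0.79, 98 of 120 pairs above 0.1) and -0.11. No 2 libraries of a group agreed within sampling noise (95 pairs). Gene positions and exon lengths come from GENCODE M21 and promoter windows from RefSeq, both on GRCm38. The 2 series were not compared with each other.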

Additional observations from a re-analysis of the deposited data

Results flagged for a closer look

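In lymph node CD8 cells (NDLN) of the 4 DKO sources, the log2 ratio of Psmb8 to Psmb5 was 3.81 in source 4, against 4.17 to 4.22 in the other 3, a gap large enough for 1 library to stand apart from its group. It was the only one of 55 groups and measures examined in this way, and chance alone flags about 1 in 20. The tumour effect on Psme2 differed between Treg populations, with an IL10 minus DN difference of -0.58 on the log2 scale (adjusted p = 0.0207 in edgeR's interaction test). The call was lost without batch 2, without batch 3 and without the batch term. In IL10 Tregs tumour was above lymph node in 1 of 3 batches, against 3 of 3 batches in DN Tregs.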

How the results depend on the processing

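The CD8 rise from NEG to DP gave 44 or 45 calls under every alternative run. The alternatives without a source or batch term moved no CD8 count by over 1.5 times. Without the replicate block (batch) in the Treg series, calls were 0 for naive DN against Teff, 2 and 1 for naive IL10 and Ebi3 against DN, 3 and 1 for lymph node IL10 and Ebi3 against DN, 0 for tumour IL10 against Ebi3, 4, 0 and 2 for tumour against lymph node in DN, IL10 and Ebi3 Tregs, and 0 for the differences between these; it changed no other call count by over 1.5 times. With library totals, calls were 15 for lymph node Ebi3 against DN, 2 for tumour IL10 against Ebi3, 11, 6 and 5 for tumour against lymph node in DN, IL10 and Ebi3 Tregs, 7 for NEG against NDLN and 12 for INT against NEG. DESeq2 gave 14 for lymph node Ebi3 against DN, 2 for tumour IL10 against Ebi3, 5 for the differences of the tumour effect and 2 for Ebi3L against yfp. Limma on the deposited values gave 15 for lymph node Ebi3 against DN, 6 for tumour IL10 against Ebi3, 6 for tumour against lymph node in IL10 Tregs, 2 for the differences and 6 for NEG against NDLN. Without the low-count filter, calls were 0 for tumour IL10 against Ebi3, 3 for naive Ebi3 against DN and 1 for Ebi3L against yfp. Without the 3 sources of batch 3, an alternative chosen after seeing the data, calls were 7 for NEG against NDLN and 2 for INT against NEG, with fewer samples. The cause of the other differences was not tested. No share of all genes called is given for the alternatives, so these counts cannot be set against those of other genes.

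Leaving out 1 batch gave 0 to 11 calls for naive DN against Teff, 1 to 5 and 1 to 3 for naive IL10 and Ebi3 against DN, 2 to 6 and 1 to 6 for lymph node IL10 and Ebi3 against DN, 0 to 0 for tumour IL10 against Ebi3, 8 to 10, 1 to 3 and 2 to 8 for tumour against lymph node in DN, IL10 and Ebi3 Tregs, and 0 to 2 for the differences of the tumour effect. Leaving out 1 CD8 source gave 0 to 3 calls for the differences of the DP over NEG change from yfp, 23 to 27 for DP against NEG in Il10 sources, where 1 of 2 sources is left and is assumed to vary like the others, 0 to 1 for Ebi3L against yfp and 0 to 2 for Il10 against yfp.

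Signs turned only for changes that were not called. With library totals these were, in tumour against lymph node DN Tregs, Psmb10 -0.0942, Psme1 -0.0821, Psmb5 -0.0455 and Psmb6 -0.0347, in IL10 Tregs Psme1 -0.107, Psme2 -0.128 and Psmb6 -0.0888, and in Ebi3 Tregs Psmb5 -0.0410, Psmb6 -0.0415 and Psmb7 -0.0237; limma on the deposited values gave -0.0946, -0.0840, -0.0465 and -0.0329, then -0.110, -0.132 and -0.0891, then -0.0406, -0.0428 and -0.0242. Leaving out 1 batch, Psmb9 in naive DN against Teff was -0.0428 to 0.244, Psme1 in tumour against lymph node -0.00341 to 0.0736 in DN and -0.0201 to 0.120 in IL10 Tregs, and Psme2 and Psmb5 in IL10 Tregs -0.0317 to 0.0990 and -0.220 to 0.0682. Without the 3 sources of batch 3, Psme2 in DP against NEG was -0.0126. TMM in place of library totals moved 26 of 240 group levels of 8 members by more than 1 SD and 0 of 90 ratios.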
